A study of Mus musculus with 2 samples.

Results

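A list of 9 genes of mucosal defence in the mouse small intestine was taken by gene symbol from the platform's probe annotation: Dmbt1, Lypd8, Pigr, Duox2, Duoxa2, Nos2, Ido1, Lgals4 and Lgals3. Of the 9, 8 were among the 16390 genes named on the array, with 1 probe each. No probe was named Duox2, so the expression of Duox2 was not analysed here. Lypd8, Duoxa2 and Ido1 were found under older symbols. All came from a fixed list of names and none was chosen by a cut on the measured values, but the list was drawn up with earlier results of these data known.

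The epithelium of the gut keeps microbes at a distance with secreted and surface glycoproteins, exported antibodies, lectins and small toxic molecules. Dmbt1 encodes a scavenger receptor cysteine-rich glycoprotein that binds bacteria, Lypd8 a heavily glycosylated surface protein that binds flagellated bacteria in the colon, and Pigr the receptor that carries IgA across the epithelium. Lgals3 and Lgals4 encode galectins, lectins that bind beta-galactosides. Duox2 is a hydrogen peroxide-producing oxidase and Duoxa2 its maturation factor. Nos2 makes nitric oxide from arginine, and Ido1 breaks down tryptophan and is induced by interferon gamma.

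RNA of 3 populations sorted from small intestinal epithelium was compared in pairs on 2 arrays that read a dye for each sample of a pair. All mice carried the alleles Atoh1-crePGR and Rosa26-tdTomato together with Lgr5-EGFP-IRES-creERT2, and all received RU486 by intraperitoneal injection on 5 consecutive days. RU486 activates the Cre driven by Atoh1, a gene of the secretory lineage, and the recombined cells and their progeny then carry tdTomato, while EGFP reports Lgr5, a gene of crypt stem cells. Cells were sorted 20 days after recombination from a pool of 4 mice, and their age was not used here. The populations were cells with tdTomato but no EGFP (tdTomato only), cells with both reporters (double positive) and cells with EGFP but no tdTomato (EGFP only). EGFP-only RNA was the common comparison, labelled with Cy5 on both arrays, while the tdTomato-only or the double-positive RNA carried Cy3.

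Each population was 1 biological replicate on 1 array per comparison, without a dye swap, so the ratios carry neither an SD nor a test. Genes were counted when at least 2-fold apart. The number of arrays limits the precision. The EGFP-only population was measured on both arrays, and the gap between its 2 log2 levels had an SD of 0.083 across 15639 probes, which describes technical spread alone. A probe was taken as above background when it exceeded the mean of the blank spots by 2 SD, a limit of 85.4 intensity units in the tdTomato-only channel, 82.2 in the double-positive channel, and 74.1 and 75.7 in the EGFP-only channels of the first and second array. Lgr5, the gene behind the sort, had a log2 ratio of −0.89 in tdTomato-only cells and 0.26 in double-positive cells over EGFP-only cells.

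Log2 ratios were taken after loess, which is meant to remove the dye bias that changes with brightness. Without loess, median centring moved the median of all genes by −0.19 in the tdTomato-only and −0.20 in the double-positive comparison. Single genes could move farther, as Lypd8 did, from 1.49 to 0.56 in tdTomato-only and from 0.41 to −0.57 in double-positive cells. Spot intensities are given as deposited, before this step, so those of the Cy3 and Cy5 channels are not on 1 scale. In a mixed population, fewer cells of a type and less RNA per cell cannot be told apart.

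In the tdTomato-only population, Ido1, Lgals3 and Lypd8 were at least 2-fold higher than in EGFP-only cells and Dmbt1 was at least 2-fold lower. Of 7 measured genes, 3 were thus counted as higher and 1 as lower, where 6.15% of 11381 genes were counted as higher and 1.19% as lower. The median log2 ratio was 0.65 for these 7 genes and −0.01 for all genes. In the double-positive population, Dmbt1 was the 1 gene of 6 measured that passed 2-fold, and it was lower, against 5.1% of 11774 genes higher and 0.34% lower. The median there was 0.39, with −0.01 for all genes. Between the Atoh1-descended populations, Lgals3, Lgals4 and Lypd8 were at least 2-fold higher in tdTomato-only than in double-positive cells, 3 of 6 measured, and none was 2-fold lower. Of 11311 genes, 0.813% were counted as higher and 0.274% as lower in that comparison, and the medians were 0.90 for the 6 genes and −0.02 for all genes.

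The share of higher genes among all genes counted depended on the scaling. It was 83.8% in the tdTomato-only comparison, but 67.4% with the blank mean subtracted, 69.7% after quantile normalization, 59.4% in the authors' deposited log2 ratios and 32.4% with median centring. In the double-positive comparison it was 93.8%, but 74.5%, 83.0%, 74.8% and 33.0% in the same order of settings. Between tdTomato-only and double-positive cells it was 74.8%, but 55.8% with the blank mean subtracted and 54.5% in the deposited ratios. There it hardly moved after quantile normalization (76.1%) or with median centring (76.3%).

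**Figure D1:**
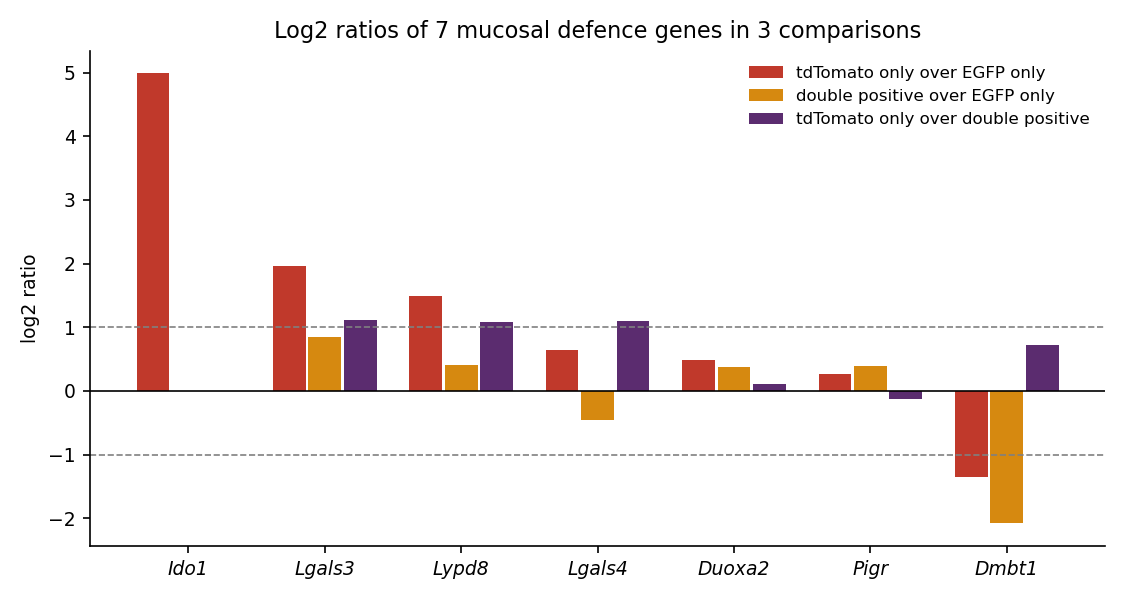
Log2 ratios (vertical axis) of the 7 genes above background in at least 1 comparison, as bars for tdTomato only over EGFP only, double positive over EGFP only and tdTomato only over double positive. Dashed lines mark 2-fold, and a missing bar means that a channel was not above background. Ido1 stands at 4.99 and Dmbt1 is the gene below −1 against EGFP only.

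The promoters of Lypd8, Lgals4 and Lgals3 are shown because these genes were the 3 that passed 2-fold between tdTomato-only and double-positive cells. Each line gives the 250 bases before a transcription start from RefSeq (GRCm38.p6), 5′ to 3′ on the gene's strand, which is the plus strand for all 3. They lie at chr11:58378782-58379031 for Lypd8 (the first of its windows), chr7:28833544-28833793 for Lgals4 and chr14:47373610-47373859 for Lgals3. Capitals mark a match to one of 4 motifs searched.
Lypd8: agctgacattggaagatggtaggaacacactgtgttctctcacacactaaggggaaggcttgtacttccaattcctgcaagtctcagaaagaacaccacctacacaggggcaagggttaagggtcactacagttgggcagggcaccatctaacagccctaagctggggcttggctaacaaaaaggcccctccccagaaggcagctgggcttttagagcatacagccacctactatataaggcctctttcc
Lgals4: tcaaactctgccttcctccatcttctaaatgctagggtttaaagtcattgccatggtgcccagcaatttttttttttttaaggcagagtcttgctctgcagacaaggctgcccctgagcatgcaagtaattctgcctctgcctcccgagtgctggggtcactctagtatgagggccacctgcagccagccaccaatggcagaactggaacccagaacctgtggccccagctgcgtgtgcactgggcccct
Lgals3: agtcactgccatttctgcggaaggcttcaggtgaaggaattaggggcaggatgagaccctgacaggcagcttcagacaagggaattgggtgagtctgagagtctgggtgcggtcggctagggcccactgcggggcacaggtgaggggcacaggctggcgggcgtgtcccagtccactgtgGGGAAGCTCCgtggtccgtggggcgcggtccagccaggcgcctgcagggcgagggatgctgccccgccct

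Windows of 300 bases, from 250 before to 50 after the start, were searched on both strands for the STAT motif TTCNNNGAA, the CDX motif TTTATNG, the interferon-stimulated response element core and the NF-kB consensus. Of 32851 such windows, 8.30% held the STAT motif, 10.9% the CDX motif, 3.44% the response element core and 8.46% the NF-kB consensus. For 6 of the listed genes there were 7 windows. The Lgals3 window held 1 NF-kB match, 70 bases before the start, and neither the Lgals4 window nor the windows of Lypd8 and Duox2 held any of the 4. The Pigr window held the STAT motif as ttcctggaa just after the start. The Duoxa2 window held a CDX match on the opposite strand, 31 bases before the start, in letters that also read as a TATA box on the gene's own strand. The G and C share of the printed stretches was 51.2% for Lypd8, 53.6% for Lgals4 and 66.0% for Lgals3. A match describes these letters and says nothing of a factor.

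Dmbt1, whose secreted glycoprotein aggregates bacteria, was lower in Atoh1-descended cells of either kind. Its spot intensity was 745 in tdTomato-only and 465 in double-positive cells, against 2977 and 2805 in EGFP-only cells on the first and second array. The EGFP-only spots carried the other dye, so the gap in intensity is not read as a fold. After normalization the EGFP-only measurements differed from each other by −0.07 on the log2 scale (second minus first array). The log2 ratio was −1.36 in tdTomato-only cells, or 2.56-fold lower, and −2.08 in double-positive cells, or 4.21-fold lower.

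In the reported setting, the double-positive value of Dmbt1 was the lowest of the 11774 genes measured in that comparison. The tdTomato-only value was the 15th lowest of 11381. Genes with a spot not above background were not ranked, and the ranks were not computed in the other settings. Over the reported setting and 7 alternatives the ratio stayed past 2-fold, from −1.95 to −1.34 in tdTomato-only cells and from −2.68 to −2.08 in double-positive cells. The alternatives that changed only the filter on dim probes could not move this ratio, here or for any other measured listed gene, as each has 1 probe. In the third comparison, tdTomato-only cells had more Dmbt1 than double-positive cells by 0.72 (1.64-fold), with a range of 0.68 to 0.79 over the settings. In these samples the order of the levels was double positive, tdTomato only and EGFP only, low to high, and the spread between samples of a population was not measured for Dmbt1 or the other genes.

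Among stem cell markers, 7 of 11 were at least 2-fold lower in tdTomato-only and 3 of 12 in double-positive cells. The list medians were −1.16 in tdTomato-only and −0.30 in double-positive cells. The ileal and crypt stem cell gene Olfm4 had log2 ratios of −2.37 in tdTomato-only and −1.56 in double-positive cells. Between the Atoh1-descended populations the stem list had a median of −0.73 over 11 genes and the enteroendocrine list 0.61 over 10. Dmbt1 stood at 0.72. The summed intensity of the stem markers over the blanks was 5953 in tdTomato-only and 10105 in double-positive cells, against 38299 and 38079 in EGFP-only cells, with 1 probe not above background in tdTomato-only cells. Such sums set Cy3 against Cy5 before normalization, and the Olfm4 spot alone had 23003 and 23475 in EGFP-only cells. Of 10 enteroendocrine markers, 1 was at least 2-fold lower and 1 higher in tdTomato-only cells and 6 were lower in double-positive cells, with medians of −0.45 and −1.11 in that order. Their summed intensity was 3984 in tdTomato-only and 1926 in double-positive cells, against 7343 and 7502 in EGFP-only cells, and no probe was below background. The part of these cell types in the Dmbt1 values was not tested. None of 15 listed genes for other scavenger receptor cysteine-rich proteins passed 2-fold, with 6 measured in the tdTomato-only and 7 in the double-positive comparison. These genes were dim. Their 16 probes had a summed intensity over the blanks of 256 in tdTomato-only and 221 in double-positive cells, against 205 and 221 in EGFP-only cells. Ratios so close to background say little about whether these genes differed. Those farthest from 0 were Ssc5d (0.19 in tdTomato-only cells and −0.08 in double-positive cells), Prss12 (−0.18 and −0.12, in that order) and Cd5l (−0.15 and −0.02).

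**Figure D2:**
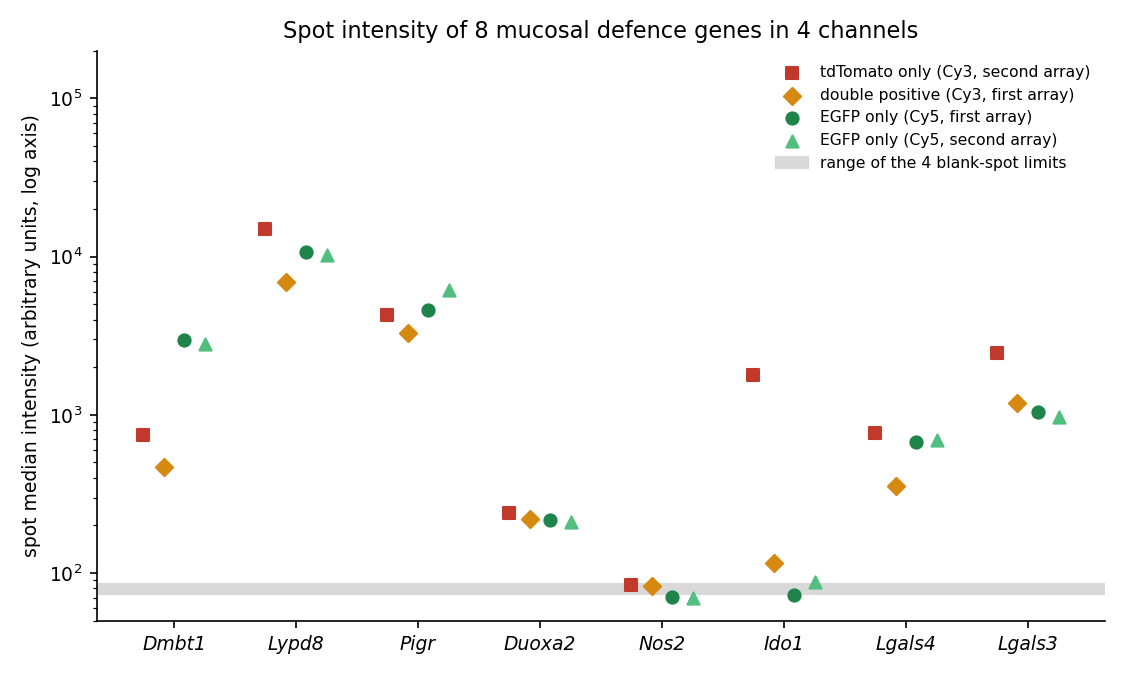
Spot median intensity on a log axis, in arbitrary units, of the 8 genes with a probe in the tdTomato-only, double-positive and both EGFP-only channels; each point is 1 spot. The grey band spans the blank-spot limits of the 4 channels, from 74.1 to 85.4, in which the Nos2 spots of the Cy3 channels lie. Ido1 stands at 1775 in tdTomato-only cells, with its other points between 72.9 and 116.

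Lypd8, the gene of a glycosylated GPI-anchored protein of the LY6 and uPAR family, had a spot intensity of 14895 in tdTomato-only and 6904 in double-positive cells, against 10683 and 10161 in EGFP-only cells on the first and second array. The Cy3 value was thus higher in tdTomato-only than in double-positive cells, while the EGFP-only values differed by −0.002 on the log2 scale after normalization. The log2 ratio was 1.49 in tdTomato-only cells (2.81-fold) and 0.41 in double-positive cells (1.32-fold).

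Between tdTomato-only and double-positive cells Lypd8 differed by 1.08 (2.12-fold higher in tdTomato only), and the range over 8 settings was 1.01 to 1.18. Against EGFP only the values depended on the scaling. The tdTomato-only ratio ran from 0.56 with median centring to 1.70 with the blank mean subtracted, and was 0.86 in the authors' deposited log2 ratios. The double-positive ratio had no stable sign, at −0.57 with median centring, −0.15 in the deposited ratios and 0.53 with an offset of 16. In these samples the level in tdTomato-only cells was the highest of the 3 in all 8 settings, and the order of double-positive and EGFP-only cells was not settled.

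Other LY6 and uPAR domain genes were mostly dim. Of 18 listed, 6 were measured in each comparison, and 2 were at least 2-fold higher in tdTomato-only and 2 in double-positive cells, with none lower. Ly6e, a GPI-anchored protein gene, had log2 ratios of 1.43 in tdTomato-only and 1.24 in double-positive cells. Plaur, the urokinase receptor gene, had 1.22 and 1.06 in the same order. Lypd6b had 0.53 in tdTomato-only and 0.87 in double-positive cells. Their differences between tdTomato-only and double-positive cells, from −0.34 for Lypd6b to 0.18 for Ly6e, were within 2-fold, whereas Lypd8 passed it.

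Markers of goblet cells and enterocytes are set beside Lypd8 and the galectins. Of 12 measured goblet markers, 11 were at least 2-fold higher in tdTomato-only and 10 in double-positive cells, and 6 of 11 were at least 2-fold higher in tdTomato-only than in double-positive cells. Their summed intensity over the blanks was 314329 in tdTomato-only and 155609 in double-positive cells, against 52368 and 45745 in EGFP-only cells, and no probe of the list was below background. The Cy3 sums are lower bounds, since Tff3, Zg16 and Spink4 were saturated in tdTomato-only and Spink4 in double-positive cells (named after their values were seen). Of 11 enterocyte markers, 8 were at least 2-fold higher in tdTomato-only and 6 in double-positive cells, with a median of 0.24 between tdTomato-only and double-positive cells. Their summed intensity was 54680 in tdTomato-only and 29061 in double-positive cells, against 12578 and 13225 in EGFP-only cells, with no probe below background. Of 9 Paneth markers, 8 were at least 2-fold higher in tdTomato-only and 9 in double-positive cells, with a median of −0.32 over the 6 genes not saturated in both channels between tdTomato-only and double-positive cells. None of 5 measured tuft markers passed 2-fold in any comparison. The part of these cell types in the values of Lypd8, Lgals3 and Lgals4 was not tested.

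Pigr, which carries polymeric IgA to the lumen, stayed within 2-fold in each comparison. Its spot intensity was 4280 in tdTomato-only and 3282 in double-positive cells, against 4610 and 6189 in EGFP-only cells on the first and second array. The EGFP-only measurements were themselves 0.42 apart on the log2 scale, where the 500 probes nearest in brightness had an SD of 0.13. The log2 ratio was 0.26 in tdTomato-only and 0.39 in double-positive cells, and the difference between these was −0.13. All 3 sizes are below that gap of 0.42. The difference was below 0 in all 8 settings, from −0.22 to −0.08. The Cy3 levels taken without the EGFP-only channels put Pigr 0.29 higher in tdTomato-only than in double-positive cells. Both Pigr channels were brighter on the second array, a shift that these Cy3 levels keep and the ratios remove. With 1 array for each population, their order was not settled.

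Median centring gave Pigr −0.53 in tdTomato-only and −0.43 in double-positive cells, and the deposited log2 ratios gave −0.24 and −0.02, so the direction against EGFP only was not settled. Of 11 listed genes for IgA and its transport, 9 were measured and none passed 2-fold in any comparison, with medians of 0.08 in tdTomato-only and −0.07 in double-positive cells. The recycling endosome GTPase gene Rab11a stood at 0.79 in tdTomato-only and 0.42 in double-positive cells. Rab5a, of early endosomes, had 0.70 and 0.69 in the same order, and the recycling motor gene Myo5b had 0.46 and 0.14. None of the plasma and B cell markers passed 2-fold, with 3 measured in the tdTomato-only and 4 in the double-positive comparison and medians of −0.01 and 0.19 in that order.

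Lgals3 encodes galectin-3, which has a single carbohydrate-binding domain, and it was higher in Atoh1-descended cells. Its spot intensity was 2469 in tdTomato-only and 1188 in double-positive cells, against 1038 and 973 in EGFP-only cells on the first and second array. Of the Cy3 spots the tdTomato-only one was the brighter, and the EGFP-only measurements differed by −0.09 on the log2 scale. The log2 ratio was 1.96 in tdTomato-only cells (3.88-fold) and 0.85 in double-positive cells (1.80-fold).

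The difference of 1.11 between tdTomato-only and double-positive cells (2.16-fold) stayed between 1.00 and 1.14 over 8 settings and lay just under 2-fold after quantile normalization alone. Against EGFP only, the Lgals3 ratio ran from 1.36 to 2.06 in tdTomato-only cells and from 0.25 to 0.92 in double-positive cells. The sign was positive in all of them. In these samples the order was tdTomato only, double positive and EGFP only, high to low.

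Lgals4 encodes galectin-4, a tandem-repeat galectin of the brush border and its lipid rafts. The Lgals4 spot had an intensity of 769 in tdTomato-only and 354 in double-positive cells, against 676 and 692 in EGFP-only cells on the first and second array. Of the Cy3 spots the double-positive one was the dimmer, and the EGFP-only measurements differed by 0.04 on the log2 scale. The log2 ratio was 0.65 in tdTomato-only cells (1.56-fold) and −0.46 in double-positive cells (1.38-fold lower), so it lay on opposite sides of 0.

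Neither Lgals4 ratio passed 2-fold, but their difference of 1.11 did (2.15-fold higher in tdTomato only). The signs were the same in all 8 settings, with 0.14 to 0.72 in tdTomato-only cells, −0.94 to −0.46 in double-positive cells and 1.06 to 1.23 for the difference. Some mouse strains carry Lgals6, a close copy of Lgals4, and which of these the probe reads is uncertain. For Lgals4 the order in these samples was tdTomato only, EGFP only and double positive, high to low.

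The list of other galectins held 9 genes, with the galectin-binding Lgals3bp counted among them, and 7 were measured. None of these passed 2-fold against EGFP only, with medians of 0.10 in tdTomato-only and −0.23 in double-positive cells. Lgals2, another intestinal galectin gene, had 0.73 in tdTomato-only and −0.48 in double-positive cells, a difference of 1.22, and was the 1 galectin of this list past 2-fold between these populations. Its values in the deposited log2 ratios were 0.01 in tdTomato-only and −1.13 in double-positive cells. Lgals9 had −0.19 in tdTomato-only and −0.51 in double-positive cells, and Lgals8 had 0.37 and −0.03 in the same order. Lgals3bp, the gene of a galectin-3 binding glycoprotein, was named after its values were seen and stood at −0.29 and −0.32 and differed by 0.03 between tdTomato-only and double-positive cells.

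**Figure D3:**
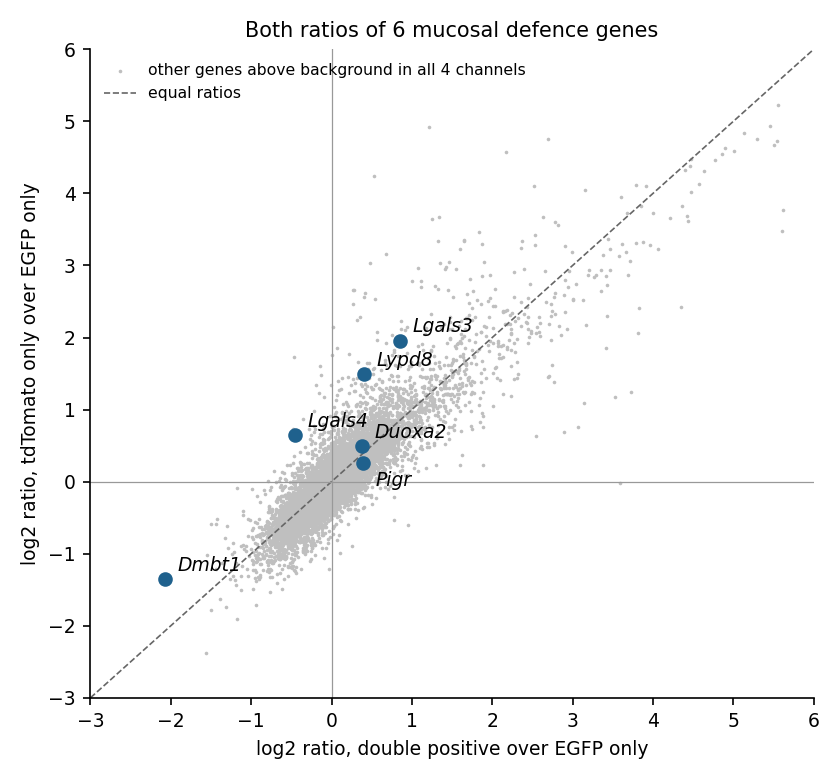
Log2 ratio of double positive over EGFP only (horizontal axis) and of tdTomato only over EGFP only (vertical axis) for 11311 genes, with the 6 listed genes in blue. The genes were above background in all 4 channels, and those saturated in both Cy3 channels are left out. The dashed line marks equal ratios. Lgals3, Lypd8 and Lgals4 lie above that line by 1.11, 1.08 and 1.11, Dmbt1 lies at −2.08 and −1.36, and Duoxa2 and Pigr lie near the line.

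Duoxa2, which brings Duox2 to the cell surface and lies beside it in the genome in the opposite orientation, stayed within 2-fold in each comparison. Its spot intensity was 240 in tdTomato-only and 221 in double-positive cells, against 215 and 210 in EGFP-only cells on the first and second array. All of these values were above background. The log2 ratio was 0.49 in tdTomato-only cells (1.41-fold) and 0.38 in double-positive cells (1.30-fold). For probes of like brightness, the EGFP-only difference between arrays had an SD of 0.07. That SD holds neither a probe's dye effect nor the spread between samples, so it does not measure the error of these ratios. Median centring put these ratios at 0.15 and 0.03 in the same order. The difference between tdTomato-only and double-positive cells was 0.11.

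Of 15 other NADPH oxidase genes and partners listed, 9 were measured. In tdTomato-only cells 1 was at least 2-fold higher and 2 were lower, and in double-positive cells 2 were higher and none lower. Duox1, the paralogue of Duox2, had a spot intensity of 301 in tdTomato-only and 318 in double-positive cells, against 145 and 136 in EGFP-only cells, with log2 ratios of 1.51 in tdTomato-only and 1.57 in double-positive cells. Duoxa1, its maturation factor, named outside the rule for its role, was not above background in any channel. Noxa1, the activator of Nox1, had −1.33 in tdTomato-only and −0.73 in double-positive cells. Nox1, the epithelial superoxide-producing oxidase, had −1.05 and −0.42 in the same order and was named after its values were seen.

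Rac2, a GTPase of blood cell oxidases, had 0.68 in tdTomato-only and 1.44 in double-positive cells, and −0.77 between tdTomato-only and double-positive cells. Among lymphocyte markers, 6 of 10 were at least 2-fold higher in tdTomato-only and 10 of 10 in double-positive cells, and 7 of 10 were at least 2-fold lower in tdTomato-only than in double-positive cells. Their part in the Rac2 values was not tested. None of 13 measured genes that remove peroxide or superoxide passed 2-fold in any comparison. Those farthest from 0 were Prdx5 (0.82 in tdTomato-only and 0.47 in double-positive cells), Txnrd1 (0.46 and 0.74) and Prdx4 (−0.66 and −0.48).

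Nos2, the inducible nitric oxide synthase gene, was too dim to compare. The Nos2 spot had an intensity of 83.7 in tdTomato-only and 82.5 in double-positive cells, against 70.7 and 69.9 in EGFP-only cells on the first and second array. The double-positive spot passed its limit of 82.2 by a small margin and the other 3 did not pass theirs, so no fold is given. A difference in Nos2 was not detectable on these arrays. Of 14 other genes of arginine and nitric oxide metabolism, 9 were measured. Arg2, the mitochondrial arginase gene, had a log2 ratio of 1.26 in tdTomato-only and 0.28 in double-positive cells, and was the 1 gene of the list past 2-fold above EGFP only. Odc1, which makes polyamines from ornithine, had −0.41 in tdTomato-only and −1.10 in double-positive cells. Gch1, which makes the cofactor of nitric oxide synthases, had 0.66 and 0.07 in the same order.

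Ido1, whose product starts the kynurenine pathway, stood out in tdTomato-only cells. Its spot intensity was 1775 in tdTomato-only and 116 in double-positive cells, against 72.9 and 88.2 in EGFP-only cells on the first and second array. Relative to the mean of the blank spots the values were 1697 in tdTomato-only and 37.7 in double-positive cells, against 4.42 and 19.5 in EGFP-only cells. The tdTomato-only spot was far above the rest, and the EGFP-only spot passed its limit on the second array but not on the first.

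The Ido1 log2 ratio in tdTomato-only cells was 4.99 (31.8-fold), and 1 of 11381 genes had a higher computed value. The rank is not exact, since 25 probes were saturated in the tdTomato-only channel and their ratios are lower bounds. The Ido1 ratio ran from 4.56 to 6.90 over 8 settings, or from 23.6-fold to 119-fold, and was 6.72 in the authors' deposited log2 ratios. For double-positive cells no fold is given, since the EGFP-only spot of that array was not above background. After loess and scaling between arrays the log2 level was 6.58 in double-positive cells, against 5.862 and 5.998 in EGFP-only cells on the first and second array. The deposited ratio for double-positive cells was 3.51, from an EGFP-only spot within 4.42 units of the blank mean.

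Ido1 had no value in the comparison of tdTomato-only with double-positive cells, since 1 of the 4 channels was not above background. Its Cy3 levels after normalization, 10.99 in tdTomato-only and 6.58 in double-positive cells on the log2 scale, differed by 4.40. Without the filter on dim probes the difference of the array ratios was 4.27, and in the deposited log2 ratios it was 3.21. Each of these puts Ido1 higher in tdTomato-only cells.

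Of 13 other genes of tryptophan uptake and use listed, 8 were measured, with a median of 0.10 in tdTomato-only and 0.10 in double-positive cells. Ido2, the paralogue of Ido1, had 0.01 in tdTomato-only and −0.06 in double-positive cells and was named after its values were seen. Wars, the interferon-induced tryptophanyl-tRNA synthetase gene, had 1.12 in tdTomato-only and 0.59 in double-positive cells and was the 1 gene of the list past 2-fold. Slc7a5, of the large neutral amino acid carrier, had 0.20 and 0.63 in the same order. Tph1, which makes serotonin from tryptophan, had −0.42 in both.

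Of 35 listed interferon response genes 28 were measured, and 4 were at least 2-fold higher in tdTomato-only cells and 1 in double-positive cells, with none lower. Ciita, the regulator of MHC class II genes, had a log2 ratio of 3.32 in tdTomato-only and 3.87 in double-positive cells. The interferon regulatory factor gene Irf7 had 1.35 and 0.36 in the same order, and Stat2 had 1.21 and 0.76. Gbp2, a guanylate-binding protein gene named after its values were seen, had 1.08 in tdTomato-only and 0.14 in double-positive cells. The list medians were 0.13 in tdTomato-only and 0.09 in double-positive cells. Of 23 listed genes of IL-22, IL-17 and NF-kB signalling, 2 of 18 measured were at least 2-fold higher in tdTomato-only and 1 of 19 in double-positive cells, with none lower. Among them Il10rb had 1.13 in tdTomato-only and 1.28 in double-positive cells, Nfkb2 had 1.05 and 0.21, and Stat3 had 0.90 and 0.96.

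Immune cells can also express Ido1, and their markers were set beside it. The summed intensity of lymphocyte markers over the blanks was 5605 in tdTomato-only and 12931 in double-positive cells, against 1641 and 1574 in EGFP-only cells. The median log2 ratio of these markers was 1.42 in tdTomato-only and 2.72 in double-positive cells. Cd3e, a gene of the T cell receptor complex named after its values were seen, was not above background in any channel and was the 1 probe of 11 in that list below it. The summed intensity of myeloid markers was 1173 in tdTomato-only and 1404 in double-positive cells, against 736 and 694 in EGFP-only cells, with 2 and 1 of 11 probes not above background in the first 2 of these and 3 and 4 in the EGFP-only channels. Those not above background were Adgre1 and Itgam in tdTomato-only cells and Cx3cr1 in double-positive cells, also named after their values were seen. C1qb, of a complement component made by macrophages, had a log2 ratio of 3.30 in tdTomato-only and 3.62 in double-positive cells, Tyrobp had 0.54 and 1.20, and Cd14 had −0.88 and −0.60. Of myeloid markers, 1 of 6 measured was at least 2-fold higher in tdTomato-only and 2 of 8 in double-positive cells. The part of immune cells in the Ido1 values was not tested.

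**Figure D4:**
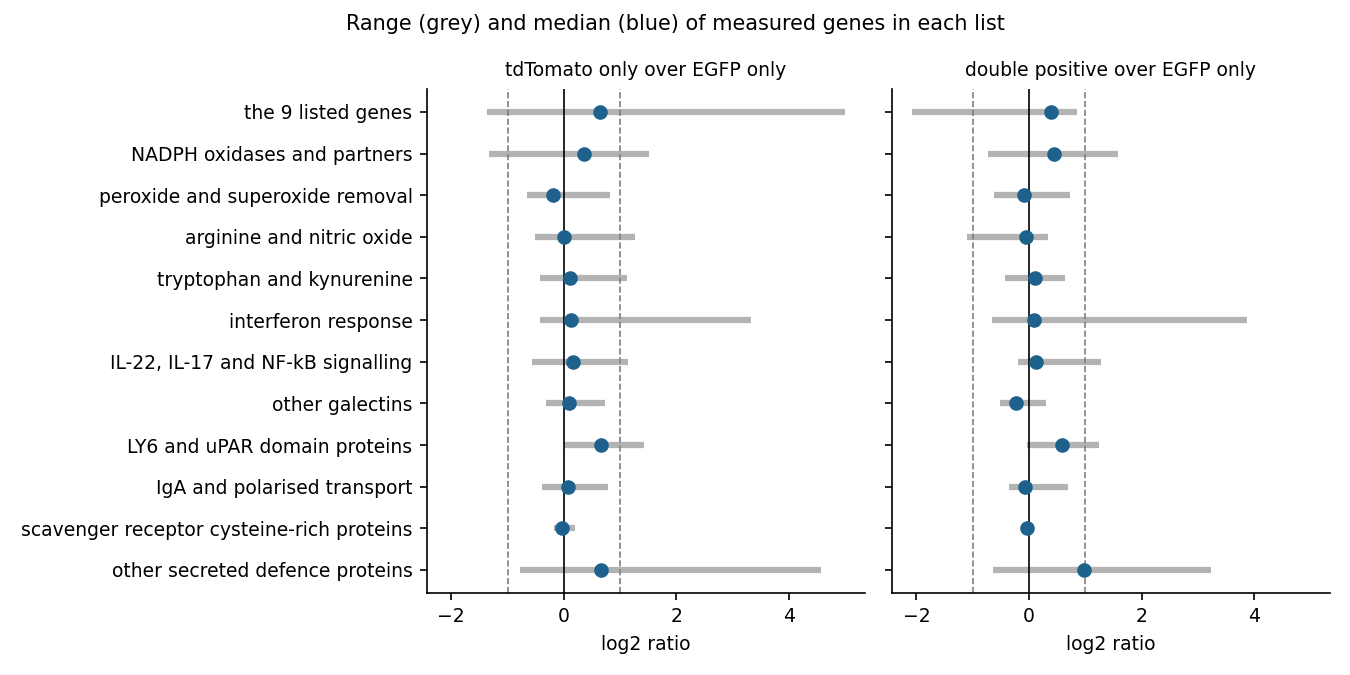
Range (grey bar) and median (blue point) of the log2 ratios of measured genes in the 9 listed genes and 11 related lists, for tdTomato only over EGFP only and double positive over EGFP only; dashed lines mark 2-fold. The 9 listed genes span −1.36 to 4.99 in tdTomato-only cells. The other galectins, counted with Lgals3bp, and the peroxide-removing genes stay within 2-fold in both comparisons.

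The genes nearest to each listed gene were those at the smallest Euclidean distance over the log2 ratios of tdTomato only and double positive. The search covered 11311 genes and left out those saturated in both Cy3 channels. Both ratios share the EGFP-only population. Nearest to Lgals4 was Lgals2 at a distance of 0.09, then Cndp2 at 0.19, and 10 genes lay within 0.25. Nearest to Lypd8 were Mxd1 at 0.028 and Reg1 at 0.049, with 30 genes within 0.25. Nearest to Lgals3 were Flna at 0.12 and Cdc42ep3 at 0.15, with 11 within 0.25. Dmbt1 had no gene within 0.25, and its nearest, Neurog3 and Ugt1a6a, were 0.63 and 0.66 away. Pigr and Duoxa2 lay in the dense middle, with 1421 and 1004 genes within 0.25. Enpp5 and Ece1 were nearest to Pigr at 0.0072 and 0.012, and Kmt2e and Smim20 were nearest to Duoxa2 at 0.0067 and 0.010.

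**Figure D5:**
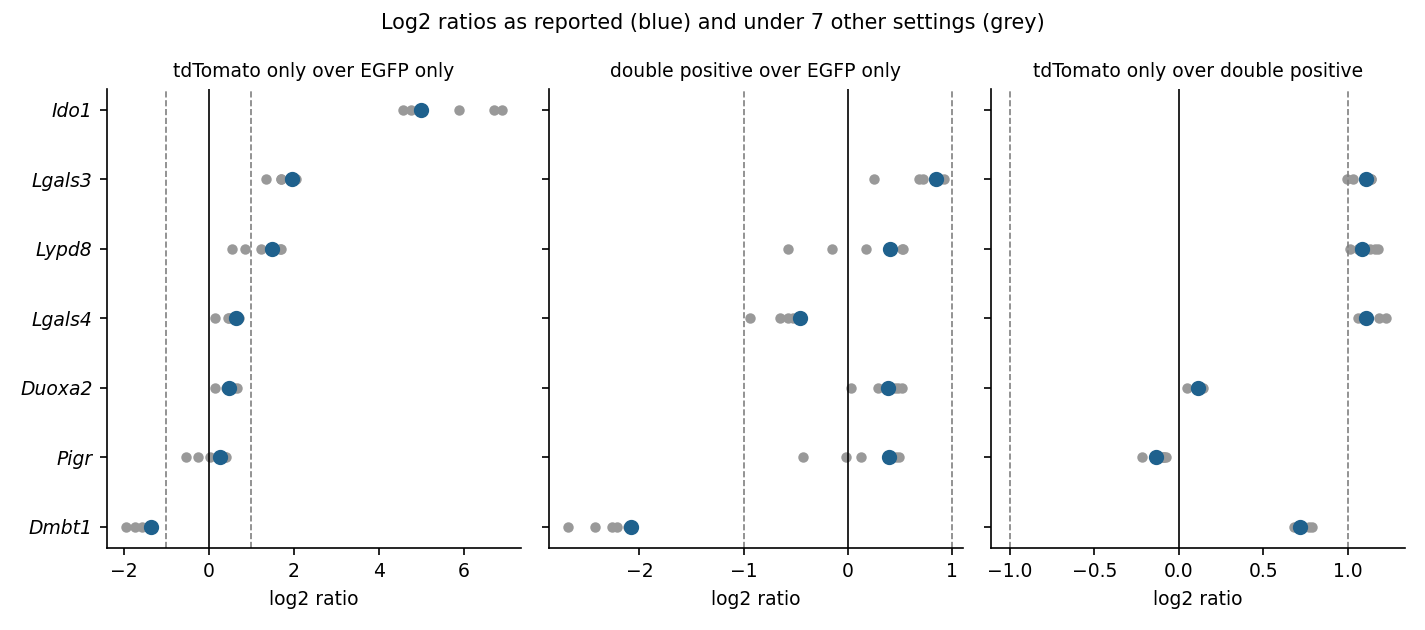
Log2 ratios (horizontal axis) of the 7 measured genes, as reported (blue) and under 7 other settings of background correction, normalization and filtering (grey), in 3 comparisons; dashed lines mark 2-fold. Between tdTomato only and double positive the settings lie close together, with 1.01 to 1.18 for Lypd8, while against EGFP only the double-positive values of Lypd8 and Pigr fall on both sides of 0.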

How the data were processed

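Total RNA was amplified with amino allyl labelling and put on Toray arrays, per the labels' protocols. The authors deposited spot median intensity values at 635 nm (Cy5) and 532 nm (Cy3), per the file headers; blank spots averaged 68.5 to 78.6, so no background had been subtracted. A deposited column of log2 ratios, which the labels give as the tdTomato-positive population over EGFP only, has a median of 0. Subtracting the trimmed mean of the blanks from each channel, taking log2 ratios and centring gave the authors' values within 0.02 for at least 99.99% of probes. Scanner and spot-finding steps were not used here.

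Normexp with an offset of 50 was applied to the intensities, followed by loess within each array in limma 3.58.1 (R 4.3.3); control and poor-quality spots had no weight. Of 23473 probes, 16631 had a gene in the platform annotation, and RefSeq updated 3947 symbols. For a gene with several probes, those above background were averaged. The third comparison is the difference of the array ratios over probes above background in all 4 channels and not saturated in both Cy3 channels. A spot at 65535 is saturated. The steps were tested on simulated arrays.

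The members and the 20 related lists were chosen with earlier results of these data known. The text names the members, up to 3 genes per list that lay farthest from 0 against EGFP only while above background on both arrays, the 2 genes nearest to each member, and Lgr5; a gene outside this rule is said to be. Alternatives changed the background correction, offset, normalization, filter or threshold, or used the deposited ratios. Those of the filter alone leave the ratio of a measured listed gene as it is.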

Additional observations from a re-analysis of the deposited data

Results flagged for a closer look

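Lgals4 lay above EGFP only in tdTomato-only cells (log2 ratio 0.65) and below it in double-positive cells (−0.46), so the 2 populations lay on opposite sides of the EGFP-only cells they were each compared with. The difference was 1.11, with 1 array on each side, and was not tested. It kept its sign in the 8 settings computed.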

How the results depend on the processing

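No paired analysis was possible because each population is 1 sample, and for the same reason no replicate could be left out. Counts below run in the order tdTomato only over EGFP only, double positive over EGFP only, tdTomato only over double positive. Over all genes the higher counts were 700, 601 and 92 as reported, 1225, 1172 and 206 with the blank mean subtracted, 407, 364 and 87 by median centring, 580, 516 and 89 under quantile normalization, 940, 838 and 123 with an offset of 16, and 1209, 1244 and 168 in the authors' deposited log2 ratios. The lower counts were 135, 40 and 31 as reported, and in the same order of settings 593, 402 and 163, then 850, 740 and 27, then 252, 106 and 28, then 225, 79 and 58, and last 828, 420 and 140. The median log2 ratios of the listed genes were 0.65, 0.39 and 0.90 as reported, 0.69, 0.49 and 0.96 with the blank mean subtracted, 0.15, −0.50 and 0.91 by median centring, 0.49, 0.15 and 0.85 under quantile normalization, 0.72, 0.48 and 0.95 with an offset of 16, 0.50, −0.085 and 0.84 in the deposited ratios, and 0.57, 0.39 and 0.90 without the filter. Listed genes at least 2-fold higher than EGFP only in tdTomato-only cells numbered 3, and 2 with median centring or in the deposited ratios, where Lypd8 fell short. With a threshold of 1.5-fold the higher counts of listed genes were 4, 1 and 4, of 7, 6 and 6 measured. The share of all genes at 1.5-fold was not computed, so these counts have nothing to be set against. No listed gene past 2-fold changed sign. The causes were not tested. Dimness limits Nos2 and Ido1 in EGFP-only and double-positive cells, and no replicate or dye swap exists to separate a probe's dye effect from a difference between populations.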

Other observations

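Other secreted defence genes were taken as a list of 24, of which 15 were measured in the tdTomato-only and 17 in the double-positive comparison. Of these, 6 in tdTomato-only and 8 in double-positive cells were at least 2-fold higher than in EGFP-only cells, with none lower. The goblet granule lectin gene Zg16 had a log2 ratio of at least 4.57 in tdTomato-only cells, where its spot was saturated, and of 2.18 in double-positive cells. Itln1, of a lectin that binds microbial glycans, was saturated in both populations, with log2 ratios of at least 2.93 in tdTomato-only and at least 3.24 in double-positive cells. Reg3g, an antibacterial lectin gene, had 2.18 in tdTomato-only and 3.17 in double-positive cells. Between tdTomato-only and double-positive cells Zg16 differed by at least 2.40, and Reg3g stood at −0.99.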
